A study of Mus musculus with 4 samples.

Results

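The 9 genes Dazl, Ddx4, Mael, Mov10l1, Tdrd1, Sycp1, Sycp3, Hormad1 and Stk31 are used by germ cells, and their histone H3 acetylation was measured at the transcription start site (TSS) in mouse embryonic stem (mES) cells. They were chosen by name, as germ cell genes with CpG-containing promoters, from the 22367 protein-coding genes with a TSS on chromosomes 1 to 19, X and Y. The 4 libraries of the series are 3 chromatin immunoprecipitations, against H3K9ac (antibody ab4441), H3K14ac (monoclonal antibody 13HH3-1A5, here 13HH3) and H3K14ac (monoclonal antibody 7G8), and input DNA. All came from untreated mES cells that the labels describe as line E14 of strain 129P2/OlaHsd at passage 25 to 30, whereas the methods describe wild type cells derived from blastocysts that had left their feeder layer before use. With 1 library per antibody there was no replicate error, so no p-value is given, and all 95% intervals are exact ones that cover counting error only. DNA methylation and RNA of these genes were not analysed here, so the silent state for which they are known was not checked.

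Germ cell genes of this kind carry CpG-rich promoters whose methylation keeps them silent in somatic tissues. In ES cells they are also bound by repressor complexes that contain E2F6, MGA and MAX, of which MGA and MAX read the E-box. Acetylation of H3 at lysines 9 and 14 is found at active promoters, and CpG-rich promoters usually carry it.

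Tags on the mitochondrial chromosome and at repeated positions were removed. The libraries then held 23181544 tags for H3K9ac, 21626227 for 13HH3, 23837354 for 7G8 and 19313142 for input. Tag counts were normalised to 10000000 tags of each library (normalised tags), so that a count of 3 tags equals between 1.26 and 1.55 normalised tags. Of 10 pluripotency genes, 9 had at least 2-fold H3K9ac over input, against 56.7% of all genes with an input tag. Their median log2 ratio was 2.33, and Esrrb, a nuclear receptor of ES cells, was the lowest at 0.01, at the 5′ end of its gene record. Of 6 feeder fibroblast markers, 1 reached 2-fold and 3 had an H3K9ac peak, which 65.2% of all genes had. The log2 ratios of these markers ran from -0.32 to 1.01, and the part of feeder cells in the values of the germ cell genes was not tested.

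The CpG-rich promoters on which this account rests are shown first. All 9 promoters fell into the high CpG class, which held 12773 of the 22367 genes and needs a window of 500 bp with at least 55% GC and at least 0.6 times the CpGs that its base composition predicts. Within 2 kb on each side of the TSS, the number of CpGs ran from 73 at Hormad1, 74 at Stk31 and 77 at Mov10l1 through 88 at Sycp3, 95 at Tdrd1, 99 at Mael, 103 at Ddx4 and 111 at Sycp1 to 168 at Dazl. The genes thus lay between the 43.3rd and the 89.6th percentile of all genes in CpG number. The first annotated start came from RefSeq at Dazl and Stk31, 21 and 65 bp upstream of the TSS used here, and was that TSS at Mov10l1. The 150 bases before the first annotated start are printed for the gene with the highest ratio of H3K9ac over input (Dazl), for the gene with the most H3K9ac tags in 250 bp (Stk31) and for the gene with the lowest ratio (Mov10l1), with each CpG in capitals, on the mm9 genome (NCBIM37).
Dazl, chr17:50432946-50433095, minus strand: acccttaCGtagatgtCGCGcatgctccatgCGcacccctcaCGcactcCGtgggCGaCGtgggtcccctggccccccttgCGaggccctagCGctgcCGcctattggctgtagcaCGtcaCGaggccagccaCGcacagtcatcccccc
Stk31, chr6:49345388-49345537, plus strand: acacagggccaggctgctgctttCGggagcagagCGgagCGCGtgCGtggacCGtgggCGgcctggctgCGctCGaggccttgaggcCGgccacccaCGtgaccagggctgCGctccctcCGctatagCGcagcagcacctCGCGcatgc
Mov10l1, chr15:88813189-88813338, plus strand: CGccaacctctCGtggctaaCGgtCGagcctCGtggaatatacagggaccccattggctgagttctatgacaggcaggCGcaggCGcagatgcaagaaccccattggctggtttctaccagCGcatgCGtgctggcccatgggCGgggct
These stretches held 14 CpGs at Dazl, 16 at Stk31 and 10 at Mov10l1, so the promoter with the lowest ratio of H3K9ac over input was also CpG-rich.

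The E-box CACGTG was searched on both strands from 250 bases before to 50 bases after the TSS, and it reads the same on both. It lay in 8 of the 9 promoters, all but Dazl, against 7.78% of all promoters of the same length, 10.5% of those in the high CpG class and 12 of 45 other germ cell genes. The 10 copies are printed here in 30 bases of the gene's strand, since of the 3 motifs searched this one lay in the most members, with the E-box in capitals.
Ddx4, chr13:113442530-113442559, minus strand: ggcgtccgcccgCACGTGcagccgtttaag
Mael, chr1:168169081-168169110, minus strand: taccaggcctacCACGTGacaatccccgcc
Sycp1, chr3:102740100-102740129, minus strand: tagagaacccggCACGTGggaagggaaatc
Sycp3, chr10:87922256-87922285, plus strand: gccgttggctccCACGTGagaacgggcatg
Sycp3, chr10:87922277-87922306, plus strand: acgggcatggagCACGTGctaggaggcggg
Hormad1, chr3:95363530-95363559, plus strand: caaagggtgcgcCACGTGccagtgacagtt
Hormad1, chr3:95363567-95363596, plus strand: atgcgcactgcgCACGTGctgaccggagcg
Stk31, chr6:49345471-49345500, plus strand: aggccggccaccCACGTGaccagggctgcg
Mov10l1, chr15:88813166-88813195, plus strand: tccatgctccttCACGTGctaaccgccaac
Tdrd1, chr19:56900676-56900705, plus strand: tggggctgcgcgCACGTGggagtaaactgc
Every copy began upstream of the TSS, from 11 bp at Tdrd1 to 223 bp at Mael. The E2F site GGCGGGAA was found at Ddx4 and Hormad1, in 2 of the 9 promoters against 2.82% of all, 4.45% of the high CpG class and 7 of 45 other germ cell genes. The NF-Y letters CCAAT were found in 5 of 9, against 37.9% of all. A match of letters is a description of the window and does not show that a factor was bound.

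Normalised tags were compared within 2 kb on each side of the TSS, in windows of equal length. Of the 9 genes, 4 had at least 2-fold H3K9ac over input (Dazl, Stk31, Sycp3 and Hormad1), in a background where 56.7% of the genes with an input tag did. None was at or below 0.5-fold, against 5.79% of all genes. An H3K9ac peak within 2 kb was called at 6 of 9, against 65.2% of all genes. With the stricter peak probability of 1e-10 in place of 1e-05 it was 3 of 9, against 56.2% of all genes and 86.7% of the high CpG class. The median log2 ratio of H3K9ac over input was 0.84 for the 9 genes, 1.29 for all genes and 1.97 for the high CpG class, in which 95.5% had an H3K9ac peak.

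With 13HH3 the order was another one. At least 2-fold H3K14ac over input was reached by 1 of 9 genes (Dazl), against 16.3% of all genes, and none was at or below 0.5-fold, against 3.75%. A 13HH3 peak was nevertheless called at 7 of 9, all but Hormad1 and Mov10l1, against 28.1% of all genes and 40.8% of the high CpG class. At 1e-10 the count was 3 of 9 (Ddx4, Mael and Sycp3), against 8.42% of all genes and 13.4% of that class. The median log2 ratio of the 9 genes was 0.61, beside 0.34 for all genes and 0.57 for the high CpG class. With 7G8, the other antibody against H3K14ac, none of 9 reached 2-fold (16.9% of all genes) and none was at or below 0.5-fold (2.46%). Stk31 alone had a 7G8 peak, 1 of 9 against 25.2% of all genes, and the median log2 ratio was 0.00 beside 0.34 for all genes.

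**Figure D1:**
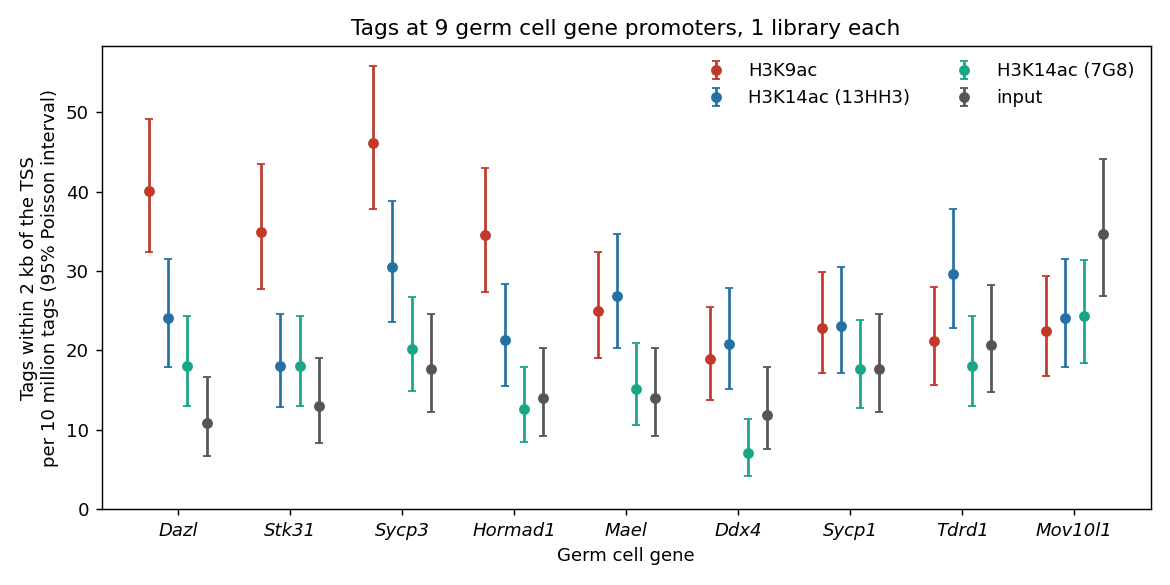
Normalised tags (tags per 10000000 tags of the library) within 2 kb of the TSS (vertical axis) at the 9 germ cell genes (horizontal axis) in the H3K9ac, 13HH3, 7G8 and input libraries, 1 library each, with exact 95% Poisson intervals as bars. H3K9ac stood above input at Dazl, Stk31, Sycp3 and Hormad1 with intervals that did not overlap, and input was the highest of the 4 values at Mov10l1.

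The genes that act in early germ cells came first. Dazl (chromosome 17, TSS at 50432924, minus strand), an RNA-binding protein needed for germ cell development, had 40.1 H3K9ac, 24.0 13HH3, 18.0 7G8 and 10.9 input normalised tags. All 3 immunoprecipitations lay above input there, and H3K9ac and 13HH3 did so with intervals that stayed above 0. On the log2 scale the ratio over input was 1.88 (95% interval 1.19 to 2.64) for H3K9ac, 1.14 (0.39 to 1.95) for 13HH3 and 0.73 (-0.05 to 1.56) for 7G8. Dazl had the highest ratio of the 9 genes for each antibody, at the 66.4th percentile of all genes for H3K9ac, the 88.1st for 13HH3 and the 71.9th for 7G8. Its H3K9ac peak ran over the TSS for 1650 bp with 68 tags against 9 input tags.

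Ddx4 (chromosome 13, TSS at 113442518, minus strand), the germ cell RNA helicase also called Vasa, had 18.98 H3K9ac, 20.8 13HH3, 7.13 7G8 and 11.9 input normalised tags. Over the whole window the 2 antibodies against H3K14ac fell on opposite sides of input at this gene, although the interval of 7G8 reached above it, and in the narrower windows 7G8 lay close to input, at -0.08 within 1 kb and 0.018 within 500 bp on the log2 scale. The log2 ratio over input was 0.67 (-0.09 to 1.47) for H3K9ac, 0.81 (0.05 to 1.60) for 13HH3 and -0.74 (-1.74 to 0.23) for 7G8. Taken directly, 13HH3 exceeded 7G8 by 1.54 on the log2 scale (0.71 to 2.44), which put Ddx4 at the 99.9th percentile of all genes in that ratio. The peaks of H3K9ac (29 tags against 5 of input) and 13HH3 (33 against 6) both covered the TSS.

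Stk31 (chromosome 6, TSS at 49345603, plus strand), a germ cell protein with a tudor and a kinase domain, had 34.9 H3K9ac, 18.0 13HH3, 18.0 7G8 and 12.9 input normalised tags. H3K9ac was clear of input, and the intervals of both H3K14ac antibodies reached below it. The log2 ratios were 1.43 (0.77 to 2.14) for H3K9ac, 0.48 (-0.28 to 1.26) for 13HH3 and 0.48 (-0.27 to 1.25) for 7G8. No other gene of the 9 had as many H3K9ac tags in 250 bp as Stk31, with 34 against 2 input tags just after the TSS. Within 500 bp of the TSS all 3 ratios had intervals above 0, at 2.41 (1.44 to 3.54), 1.32 (0.24 to 2.53) and 1.28 (0.21 to 2.48).

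Ddx4 also belongs to the piRNA pathway, which makes the small RNAs that silence transposons in germ cells, as do Mael, Tdrd1 and Mov10l1. None of these 4 reached 2-fold H3K9ac within 2 kb, but Ddx4 and Mael did within 1 kb (1.36 and 1.04) and with the scaling by bins described further on (1.17 and 1.34), and Ddx4 also within 500 bp (1.69). Of all genes, 56.7% passed within 2 kb, 62.8% within 1 kb, 67.1% with that scaling and 65.8% within 500 bp. Mael (chromosome 1, TSS at 168168875, minus strand), a nuage protein of that pathway, had 25.0 H3K9ac, 26.8 13HH3, 15.1 7G8 and 13.98 input normalised tags. H3K9ac and 13HH3 lay above input at this gene and could not be told apart from each other (13HH3 over H3K9ac, 0.10 with -0.45 to 0.65). The log2 ratios were 0.84 (0.16 to 1.56), 0.94 (0.26 to 1.66) and 0.11 (-0.65 to 0.89) in the order of the antibodies. The 13HH3 tags were highest in the first 250 bp after the TSS, with 18 against 3 of input.

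Tdrd1 (chromosome 19, TSS at 56900699, plus strand), a tudor protein that binds PIWI proteins, had 21.1 H3K9ac, 29.6 13HH3, 18.0 7G8 and 20.7 input normalised tags. No ratio over input could be told from 0 across the whole window, at 0.03 (-0.60 to 0.67) for H3K9ac, 0.51 (-0.08 to 1.12) for 13HH3 and -0.20 (-0.85 to 0.46) for 7G8. A 13HH3 peak of 500 bp was nevertheless called over the TSS, with 21 tags against 8 of input, although its log2 ratio of 1.23 had an interval that reached 0 (-0.0037 to 2.61). The nearest H3K9ac peak (139 tags against 16 of input) lay 3149 bp upstream and covered the TSS of A630007B06Rik, on the opposite strand at 4019 bp. At Tdrd1, 13HH3 also stood above 7G8, by 0.71 on the log2 scale (0.13 to 1.31).

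Mov10l1 (chromosome 15, TSS at 88813339, plus strand), an RNA helicase needed for piRNA production, had 22.4 H3K9ac, 24.0 13HH3, 24.3 7G8 and 34.7 input normalised tags. It was the only gene of the 9 where every immunoprecipitation lay below input. The log2 ratios were -0.63 (-1.18 to -0.08), -0.53 (-1.08 to 0.02) and -0.51 (-1.04 to 0.02), and no peak was called. Its input stood at the 95.6th percentile of all genes, and input was also high around its inner annotated starts 28464 to 40704 bp downstream, with 61, 55 and 84 tags against 67 at the first. Its H3K9ac level was close to that of Sycp1 (22.9) and Tdrd1 (21.1), and the part of the high input in its ratios was not tested. Within 500 bp of the TSS the H3K9ac ratio was 0.071 (-0.77 to 0.93), so in the narrow window H3K9ac could not be told from input.

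The meiosis genes were split in H3K9ac. Sycp3 (chromosome 10, TSS at 87922314, plus strand), a protein of the synaptonemal complex that joins paired chromosomes, had 46.2 H3K9ac, 30.5 13HH3, 20.1 7G8 and 17.6 input normalised tags. These were the highest H3K9ac and 13HH3 levels of the 9 genes. The log2 ratios were 1.39 (0.82 to 1.99), 0.79 (0.18 to 1.44) and 0.19 (-0.47 to 0.87). Both peaks covered the TSS, and the second 250 bp downstream held the most tags of the window, with 23 H3K9ac and 19 13HH3 tags against 5 of input.

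Hormad1 (chromosome 3, TSS at 95363599, plus strand), a protein of the meiotic chromosome axis, had 34.5 H3K9ac, 21.3 13HH3, 12.6 7G8 and 13.98 input normalised tags. Only H3K9ac could be told from input there, at 1.30 (0.66 to 1.99), beside 0.61 (-0.11 to 1.35) for 13HH3 and -0.15 (-0.95 to 0.65) for 7G8. Hormad1 was the gene with an H3K9ac peak and no 13HH3 peak, and its nearest 13HH3 peak lay 5399 bp upstream.

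Sycp1 (chromosome 3, TSS at 102740023, minus strand), the transverse filament of the same complex, had 22.9 H3K9ac, 23.1 13HH3, 17.6 7G8 and 17.6 input normalised tags. None of the ratios over the window had an interval clear of 0, at 0.38 (-0.27 to 1.04), 0.39 (-0.26 to 1.07) and 0.00 (-0.69 to 0.70). In the peaks called, Sycp1 was the reverse of Hormad1. A 13HH3 peak began 23 bp downstream of the TSS (35 tags against 12 of input), and H3K9ac had none within 2 kb. That 13HH3 peak did not pass 1e-10, and an H3K9ac peak was called with the scaling by bins described further on. The 2 marks could not be told apart in level at Sycp1 (13HH3 over H3K9ac, 0.02 with -0.57 to 0.60).

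In order of level, H3K9ac ran from Sycp3 and Dazl through Stk31, Hormad1, Mael, Sycp1, Mov10l1 and Tdrd1 to Ddx4. Neighbours in this order did not differ beyond their intervals. The intervals of Sycp3 (37.8 to 55.8 normalised tags) and Dazl (32.4 to 49.1) lay above those of the 5 lowest genes, of which Mael had the highest upper bound at 32.3. For 13HH3 the intervals of all 9 genes overlapped, between 18.0 at Stk31 and 30.5 at Sycp3. For 7G8, Ddx4 was the lowest with an interval of 4.15 to 11.4, which overlapped those of Mael and Hormad1 only, and Mov10l1 was the highest at 24.3. The ratio over input follows the input as well, which was the lowest at Dazl (15.6th percentile of all genes) and the highest at Mov10l1.

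Summed over the 9 genes, 617 H3K9ac, 472 13HH3, 360 7G8 and 298 input tags gave log2 ratios of 0.79 (0.58 to 0.99), 0.50 (0.29 to 0.71) and -0.03 (-0.26 to 0.20). With any 1 gene left out these ran from 0.66 without Dazl to 1.03 without Mov10l1 for H3K9ac, from 0.44 to 0.70 for 13HH3 and from -0.11 to 0.08 for 7G8, with the same genes at the ends. In the sum, H3K9ac and 13HH3 were above input whichever gene was left out, and 7G8 was not distinguishable from it. The intervals of the sum cover the counting of tags and not the spread between the genes. Their single H3K9ac ratios ran from -0.63 at Mov10l1 to 1.88 at Dazl. An excess over input was not particular to the 9 genes. Over all genes the same windows held 2891402 H3K9ac, 1230258 13HH3, 1309579 7G8 and 817330 input tags. The median log2 ratios, another measure than the sum, were 1.29, 0.34 and 0.34 for all genes. In the high CpG class these medians were 1.97, 0.57 and 0.57. Scaling by 10 kb bins that hold no peak would raise every log2 ratio over input by 0.50 for H3K9ac, 0.21 for 13HH3 and 0.09 for 7G8, for the 9 genes and for all others alike, and the interval of the 7G8 sum would still hold 0, with the value itself just above it. It would put 6 of the 9 genes at 2-fold for H3K9ac (67.1% of all genes) and 4 for 13HH3 (25.1%). H3K9ac peaks would then be called at 8 of 9, Sycp1 and Tdrd1 added, against 68.4% of all genes and 97.1% of the high CpG class. 13HH3 peaks would be called at 7 of 9 as before, against 33.2% and 47.0%.

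The H3K9ac and 13HH3 tags of these promoters lay close behind the TSS. Of all tags within 2 kb, the first 500 bp downstream held 37.4% (33.6% to 41.4%) for H3K9ac and 44.1% (39.5% to 48.7%) for 13HH3 at the 9 genes. The same stretch held 22.2% (18.0% to 26.9%) for 7G8 and 19.5% (15.1% to 24.4%) for input. In the high CpG class the shares were 22.5% for H3K9ac, 21.8% for 13HH3, 16.3% for 7G8 and 15.95% for input. A larger part of the H3K9ac and 13HH3 tags thus lay in that stretch at the 9 genes than in the class. The 7G8 share was also above that of the class, but its interval held the input share of the 9 genes. The share of input was higher as well, with an interval that held the class share. The highest bin of 250 bp lay in the first 500 bp downstream at all 9 genes for 13HH3. For H3K9ac the highest bin lay there, without a tie, at 6 of 9. Hormad1 had 12 tags in each of the 2 bins there and also in the last 250 bp of the window. Tdrd1 was tied at 10 tags between the bin that ends at the TSS and the second one downstream, and Sycp1 was the highest at 500 to 749 bp, with 11 tags. These bins were picked as the highest, so their tags are given as a description.

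**Figure D2:**
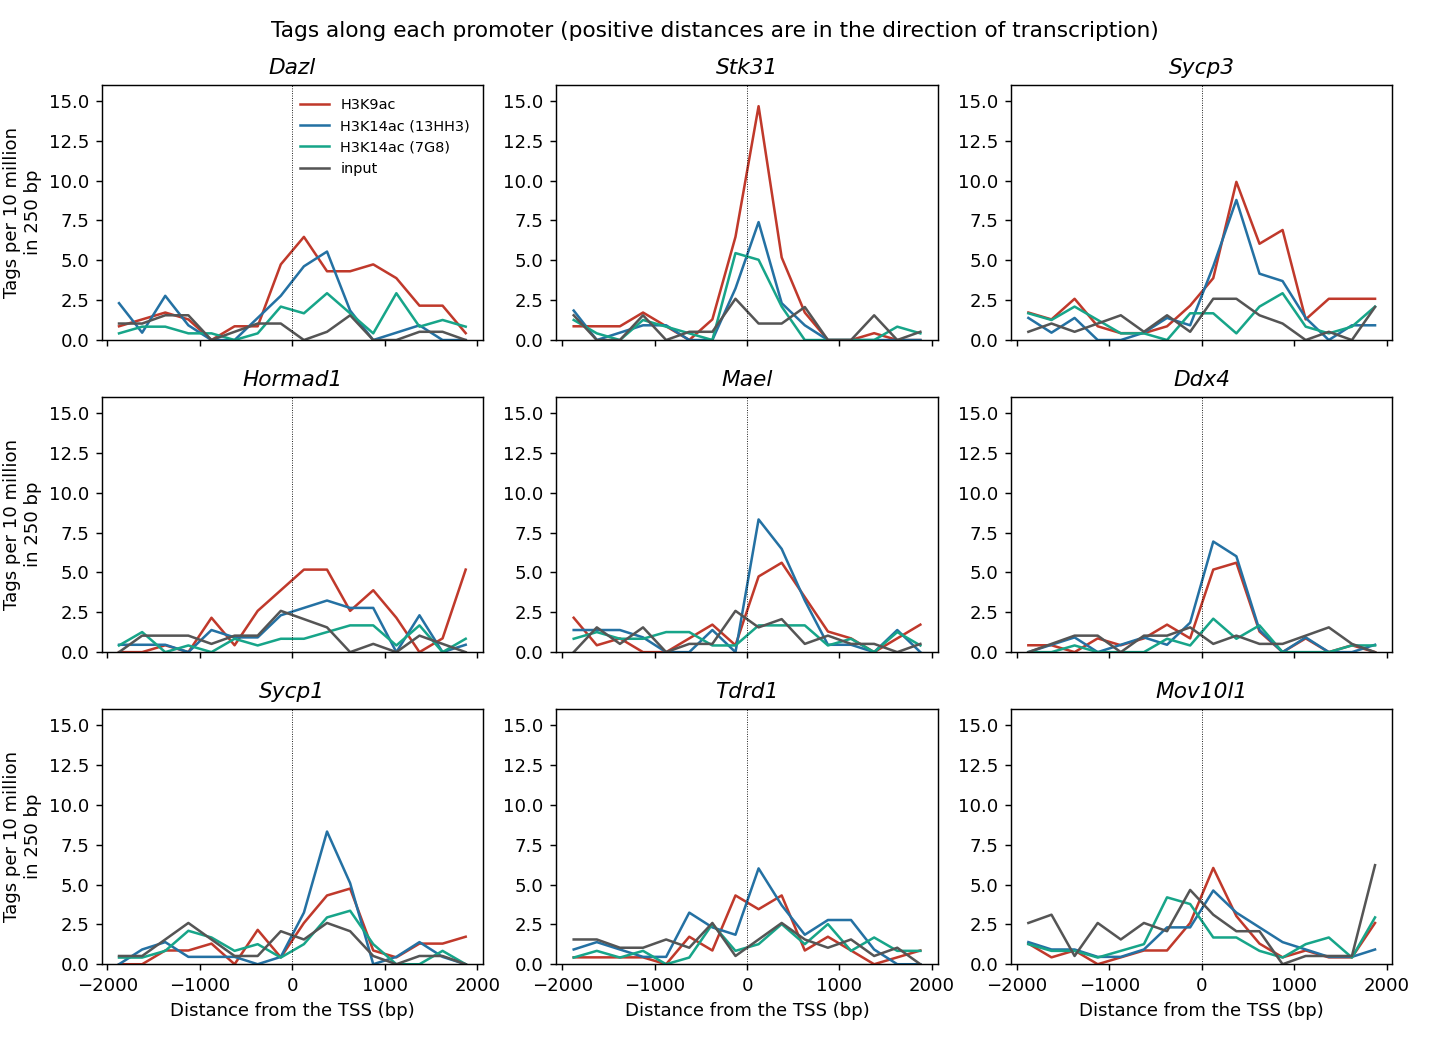
Normalised tags in bins of 250 bp (vertical axis) against the distance from the TSS in bp (horizontal axis, positive in the direction of transcription) for each of the 9 genes, with 1 line per library. H3K9ac and 13HH3 rose just downstream of the TSS at most genes, with the highest bins at Stk31 for H3K9ac (14.7 normalised tags) and at Sycp3 for 13HH3 (8.79), and at Mov10l1 H3K9ac lay below input in most upstream bins and above it just after the TSS (6.04 against 3.11).

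In the narrower window of 500 bp on each side, more of the 9 genes passed 2-fold. For H3K9ac 5 of 9 did (Dazl, Stk31, Ddx4, Sycp3 and Hormad1), against 65.8% of all genes. For 13HH3 it was also 5 of 9 (Dazl, Ddx4, Stk31, Mael and Sycp3), against 33.5%, and for 7G8 it was 2 of 9 (Dazl and Stk31), against 28.0%. In the high CpG class, 11783 of 12670 genes passed for H3K9ac, 5564 for 13HH3 and 4522 for 7G8. The median log2 ratios were 1.21 for H3K9ac, 1.12 for 13HH3 and -0.07 for 7G8, beside 2.47, 0.84 and 0.70 in the high CpG class. The median of the 9 genes in this window was thus below that of their class for H3K9ac and 7G8 and above it for 13HH3. Here the H3K9ac ratio of Dazl was 2.66 (1.32 to 4.37), and its 13HH3 ratio of 2.47 (1.09 to 4.19) stood at the 96.6th percentile of all genes. Ddx4 followed in 13HH3 at 1.88 (0.74 to 3.21), the 90.3rd percentile.

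The study viewed H3 acetylation over CpG islands sorted by their CpG content. Here the 9 genes were placed in another relation, with the CpG number within 2 kb of the TSS over all protein-coding genes. Among all genes, Spearman's rho between the CpG number and the log2 ratio over input was 0.692 for H3K9ac, 0.481 for 13HH3 and 0.330 for 7G8. Among the 9 genes it was 0.017, 0.450 and 0.133, which are descriptions over few points of the same libraries. The 10446 genes with a CpG number from 73 to 168 had a median H3K9ac ratio of 1.94 and an H3K9ac peak in 94.2%, beside 0.84 and 6 of 9 for the germ cell genes. For 13HH3 these genes had a median of 0.51 and a peak in 37.1%, beside 0.61 and 7 of 9.

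Within the tenth of all genes with a like CpG number, each of the 9 lay below the middle for H3K9ac. The lowest were Tdrd1 at the 2.34th percentile, Mov10l1 at the 2.86th, Sycp1 at the 3.50th and Ddx4 at the 6.68th. Mael followed at the 14.5th and Sycp3 at the 31.1st, while Dazl (43.6), Hormad1 (44.2) and Stk31 (49.03) were near the middle. For 13HH3 the same genes lay mostly above it. Mael stood at the 81.5th percentile, Dazl at the 77.2nd, Sycp3 at the 73.9th, Ddx4 at the 70.1st and Hormad1 at the 69.4th, with only Sycp1 (41.0) and Mov10l1 (7.25) below the middle. For 7G8 only Dazl (58.2) and Stk31 (55.8) were above the middle, and Ddx4 was the lowest at the 1.64th percentile.

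**Figure D3:**
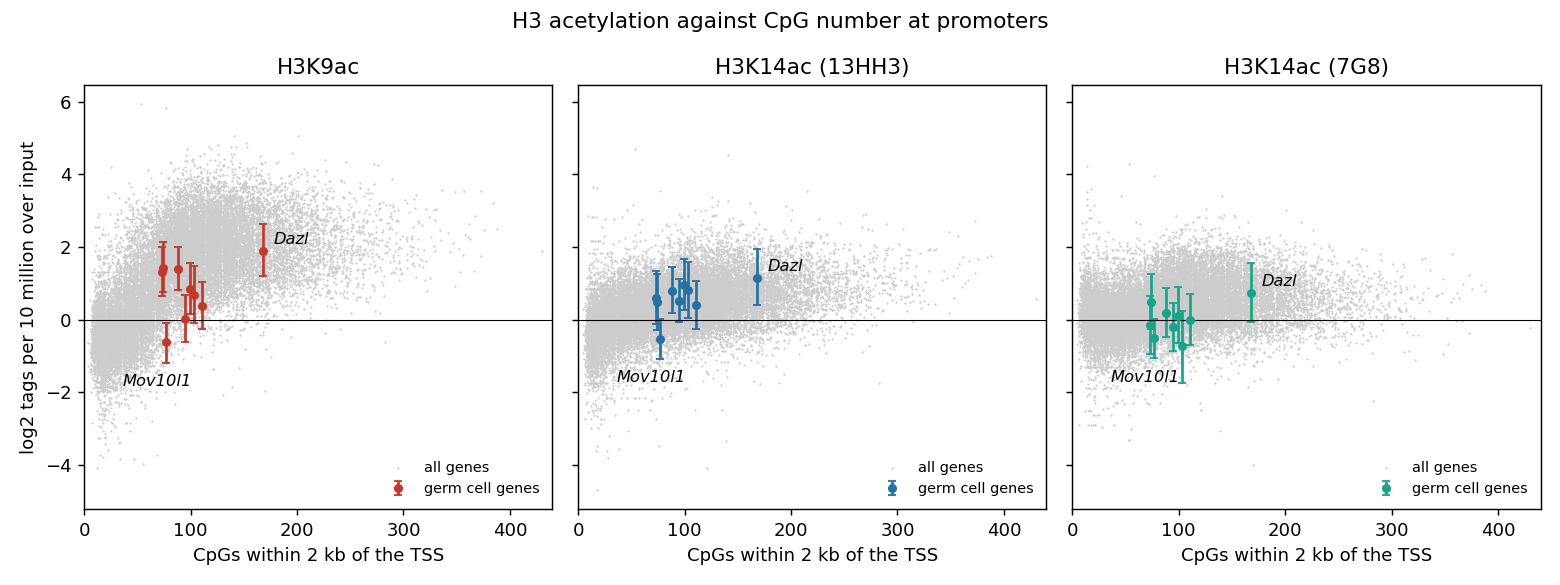
Log2 ratio of normalised tags over input within 2 kb of the TSS (vertical axis) against the number of CpGs in the same window (horizontal axis) for H3K9ac, 13HH3 and 7G8, with all genes that have tags in grey and the 9 germ cell genes in colour with exact 95% intervals. The H3K9ac points of the 9 genes run from -0.63 at Mov10l1 to 1.88 at Dazl, with Dazl, Hormad1 and Stk31 near the middle of the grey cloud at their CpG number and Tdrd1, Mov10l1, Sycp1 and Ddx4 in its lower part.

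No gene of the 9 had 13HH3 at least 2-fold over H3K9ac, 0 of 9 against 2.77% of all genes. The log2 ratio of 13HH3 over H3K9ac had a median of 0.02 and was the lowest at Stk31 with -0.95 (-1.54 to -0.39). Dazl at -0.74 (-1.26 to -0.23), Hormad1 at -0.70 (-1.25 to -0.16) and Sycp3 at -0.60 (-1.06 to -0.14) also had intervals below 0. These are the 4 genes with at least 2-fold H3K9ac, and among all genes their ratios lay at the 48.9th (Stk31), 56.3rd (Dazl), 57.6th (Hormad1) and 60.8th (Sycp3) percentile, so they were not low for the genome. The median of the 9, at Sycp1, lay at the 78.2nd. At Ddx4, Mael, Sycp1, Mov10l1 and Tdrd1 the 2 marks could not be told apart, with the highest ratio at Tdrd1 (0.49, -0.07 to 1.05), the 89.3rd percentile of all genes. Between the antibodies against H3K14ac, 13HH3 exceeded 7G8 with an interval above 0 at Ddx4 (1.54), Mael (0.83), Hormad1 (0.76), Tdrd1 (0.71) and Sycp3 (0.60), and 7G8 did not exceed 13HH3 at any of the 9 beyond the interval. Since each antibody has 1 library, an antibody and its library cannot be told apart.

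Tags were also counted around the other annotated starts of these genes. No gene of the 9 had the TSS of another gene within 2 kb, and the nearest coding ones were Mlc1 at 3902 bp from Mov10l1, A630007B06Rik at 4019 bp from Tdrd1 and Slc38a9 at 8466 bp from Ddx4. The second annotated start of Dazl, 707 bp downstream, gave 2.24 (1.47 to 3.11) for H3K9ac and 1.23 (0.37 to 2.16) for 13HH3, and there 7G8 also had an interval above 0, at 1.19 (0.34 to 2.11). The inner start of Stk31, 42960 bp downstream, gave 0.70 (-0.11 to 1.56) for H3K9ac with no peak. The last start of Tdrd1, 4503 bp downstream, gave -0.22 (-0.93 to 0.48) with no peak. At the inner start of Sycp1, 102306 bp downstream, there were 6 H3K9ac and 3 input tags, too few for a ratio to be read.

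Further genes of these pathways were taken from lists by function. For H3K9ac, 56.7% of all genes reached 2-fold and 65.2% had a peak, beside 85.3% and 95.5% in the high CpG class. That class held 9 of the other piRNA genes, 16 of the other meiosis genes and 9 of the remaining germ cell genes. Of 14 other piRNA pathway genes, 13 were found in the annotation under their listed name, and 3 of 13 had at least 2-fold H3K9ac, 8 had a peak and the median log2 ratio was 0.58. The highest was Tdrd12, a tudor protein, at 1.33, and the lowest was Piwil1, a PIWI protein of the testis, at -0.64. Like Mov10l1, Piwil1 had high input, with 65 tags against 50 of H3K9ac. Of 17 other meiosis genes, 12 had at least 2-fold H3K9ac and 16 had a peak, with a median of 1.35. Prdm9, the methyltransferase that places meiotic recombination, was the highest at 2.43, and Tex12, of the central element of the synaptonemal complex, was the lowest at -0.16. Of 15 other germ cell genes, 6 had at least 2-fold H3K9ac and 6 a peak, with a median of 0.24, from Figla, an oocyte transcription factor, at -0.60 to Tex14, a protein of germ cell bridges, at 3.68.

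Set beside these lists, none of the 4 piRNA genes among the 9 (Ddx4, Mael, Mov10l1, Tdrd1) had at least 2-fold H3K9ac within 2 kb. Of the 3 meiosis genes among the 9, 2 did (Sycp3, Hormad1), against 56.7% of all genes and 85.3% of the high CpG class. Ddx4 and Mael passed under the other settings given with them. For 13HH3 the medians were lower in the other germ cell genes than in the 9, at 0.16 for piRNA, 0.33 for meiosis and 0.04 for the remainder. A 13HH3 peak was called at 18 of 45 genes against 7 of 9, beside 28.1% of all genes and 40.8% of the high CpG class. Of the 45 genes, 34 were in that class, of which 13 had a 13HH3 peak, with a median log2 ratio of 0.19. Other coding starts within the window were looked for at the 9 genes only, so the part of neighbouring genes in the values of the lists was not tested. Differences between these lists were not tested either.

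Genes for repressors that act on germ cell promoters had a higher median H3K9ac ratio than the 9 genes. Of 16 such genes, all in the high CpG class, 15 had at least 2-fold H3K9ac, with a median of 2.35. Of all genes 56.7% reached 2-fold, and of the high CpG class 85.3%, with a median of 1.97 in that class. The differences were not tested. Of the 16 repressor genes, Cbx3, a heterochromatin protein, was the highest at 4.27. Dnmt3a, a de novo DNA methyltransferase, was the lowest at 0.18 with 278 CpGs in its window, at the 5′ end of its gene record. Tags around inner starts of the genes in these lists were not examined. The developmental regulators, which are held back in ES cells by polycomb and of which 10 had a high and 2 an intermediate CpG promoter, had median log2 ratios of 1.03 for H3K9ac, 0.67 for 13HH3 and 0.34 for 7G8, beside 0.84, 0.61 and 0.00 for the 9 genes, and 8 of 12 had at least 2-fold H3K9ac. Their median H3K9ac level was 47.7 normalised tags, beside 25.0. A list of 12 tissue genes, of which 5 had a low, 6 an intermediate and 1 a high CpG promoter, had a median H3K9ac ratio of 0.26, and of the 11 with an input tag 1 passed 2-fold (Tnni3, a troponin of the heart, at 1.75). The protein-coding genes whose levels in the 4 libraries were nearest to the medians of the 9 were Tcfap2b (distance 0.106 on the log2 scale of normalised tags plus 1), Sgcz (0.131) and Dydc1 (0.133), and 268 genes lay within 0.5.

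**Figure D4:**
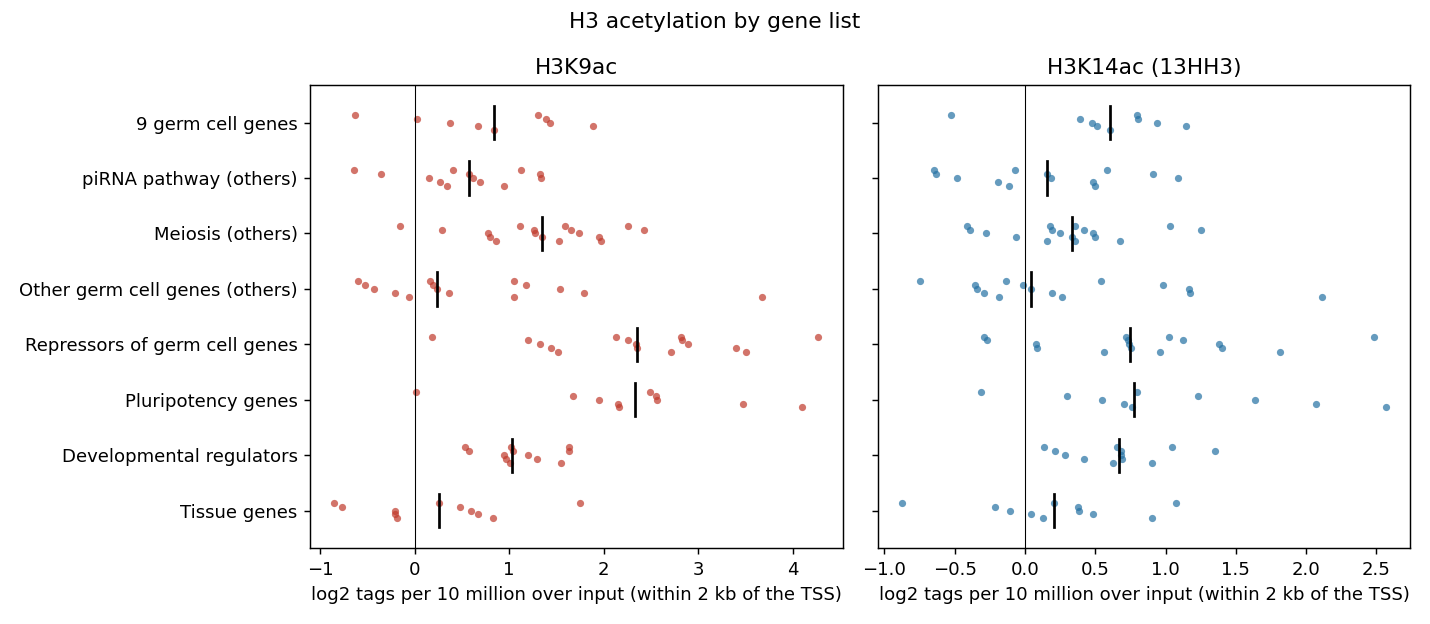
Log2 ratio of normalised tags over input within 2 kb of the TSS (horizontal axis) for the genes of each list (rows), for H3K9ac on the left and 13HH3 on the right, with 1 point per gene and a black bar at the median. The 9 germ cell genes have a median of 0.84 for H3K9ac, below those of the repressors (2.35) and the pluripotency genes (2.33), and of 0.61 for 13HH3.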

How the data were processed

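Chromatin of mES cells was sequenced in 4 libraries as single-end reads of 36 bases. The authors aligned them to mm9 with ELAND, allowing 1 mismatch, and deposited 1 line per mapped tag, from which tag counts were made here. The deposited values carry no normalization. One tag per position and strand was kept (3.30% of the deposited 13HH3 tags were repeats, and the other 3 files held no repeated position as deposited), and each 5′ end was moved 100 bp inwards. GENCODE M1 gave 1 TSS per gene, at the 5′ end of the gene record. Ratios were taken of tags per 10000000 tags of the library over input, among genes with at least 1 input tag, with exact Poisson intervals for levels and Clopper-Pearson intervals for ratios and shares. Peaks were windows of 400 bp, in steps of 50 bp, with a Poisson probability under 1e-05 against the highest of the genome mean and the scaled input in 1, 5 and 10 kb, since MACS itself was not run. RefSeq starts were located in mm9 by their sequence, and printed sequences come from the NCBIM37 genome.

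All 9 members are named, and of other lists the highest and the lowest gene by H3K9ac over input. The members and lists were chosen with earlier results of these data known. Ratio intervals and the peak caller were tested on simulated data. The software was Python 3.11.15 (scipy 1.17.1 for intervals, numpy 2.4.6 and pandas 2.3.3 for counts, matplotlib 3.10.9 for plots). Alternatives were tried for the window, repeats, scaling, tag shift, TSS, fold, pseudocount, input minimum and peak threshold.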

Additional observations from a re-analysis of the deposited data

How the results depend on the processing

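Leaving out genes with a coding neighbour and requiring 10 input tags could change no value of the 9 genes, and keeping repeats could change only those of 13HH3. Of the ratios of single genes 12 moved beyond their interval, all in the 500 bp window. Of those whose interval excluded 0, the 500 bp window reversed the sign of 1, H3K9ac over input at Mov10l1. Its value there was 0.071, with an interval that held 0 (-0.77 to 0.93). Ratios whose interval held 0 turned there as well, among them 13HH3 at Mov10l1 (0.068) and 7G8 at Ddx4 (0.018), Mael (-0.68) and Sycp3 (-0.94). The 500 bp window gave 5 genes with at least 2-fold 13HH3, 2 with 7G8 and 1 at or below 0.5-fold for 7G8 (Hormad1), and the 1 kb window gave 4 with 13HH3 and 1 with 7G8. With 1.5-fold in place of 2-fold these counts were 5 for 13HH3 and 1 for 7G8, and 1 gene each fell below the inverse for H3K9ac and 7G8. Keeping repeats gave 2 genes with 13HH3 (17.3% of all genes), and scaling by bins without a peak gave 4. At a peak probability of 1e-10, 3 genes had an H3K9ac peak (56.2% of all genes), 3 a 13HH3 peak (8.42%) and 0 a 7G8 peak (6.08%). Of all genes, 27.2% (1 kb), 33.5% (500 bp), 25.1% (bins) and 35.6% (1.5-fold) then passed for 13HH3, and 26.2%, 28.0% and 36% for 7G8 with 1 kb, 500 bp and 1.5-fold. The shares at or below the inverse moved as well, to 2.07% (bins) and 11.9% (1.5-fold) for H3K9ac, to 6.49% (500 bp), 2.35% (bins) and 8.83% (1.5-fold) for 13HH3, and to 6.39% (500 bp) and 7.21% (1.5-fold) for 7G8. The cause of these moves was not tested. Other counts moved by at most 1.5 times, among them the genes with at least 2-fold H3K9ac (4 to 6) and, with bins, those with an H3K9ac peak (6 to 8). No paired analysis was possible because each group holds 1 library. Depth limited the ratios, since with 21 to 67 input tags per gene the intervals of genes next to each other in ratio overlapped.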

Other observations

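Among the 45 other germ cell genes of the lists, 34 had a promoter of the high CpG class, of which 18 had at least 2-fold H3K9ac over input and 26 an H3K9ac peak, with a median log2 ratio of 1.12. The 11 of them that also held an E-box between 250 bp before and 50 bp after the TSS had a median of 0.34, 3 of 11 had at least 2-fold H3K9ac and 7 of 11 a peak, where 85.3% of the high CpG class reached 2-fold. Over all 1341 high CpG promoters with an E-box the median was 2.10 and an H3K9ac peak was called at 95.5%, beside 1.96 and 95.5% over the 11432 without one. The subset was made after the values of the germ cell genes were known, and the difference was not tested.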
